A study of Mus musculus with 48 samples.

Results

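A set of 35 cell cycle genes was followed in mouse kidney RNA. They were chosen by symbol as genes of mitosis, DNA replication and proliferation, with 1 probe set per gene, the one with the highest mean log2 signal over the 430A and 430B chips. A probe set was found for 34 of the 35. Ccnb1, which encodes cyclin B1, had none under its symbol and was not analysed here. Only 17 of the 34 passed the filter on low signals, which asked for a signal above the array's own median on 3 or more of a chip's 24 arrays, and were tested among 18381 features, of which 12573 had a gene name.

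Kidneys came from mice in 8 groups of 3 pools, formed by genotype, diet and sex, and each pool held RNA of 3 mice, 72 mice in all. The Hyp mutation, a lesion of the X-linked gene Phex that causes renal phosphate wasting, was carried as Hyp/Y by males and as Hyp/+ by females, and the normal groups were littermates without it. All mice were 10 weeks old and received a control (Teklad TD 86129) or a low phosphorus (TD 86128) diet with deionized water for 3 days. The label of 1 array names C57BL/6J mice, and the others give no strain. Each pool was hybridised to both chips, 48 arrays in all.

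A dividing cell first copies its DNA and then separates the copies. The MCM helicase opens DNA at replication origins, PCNA clamps the polymerase to the template, and ribonucleotide reductase and thymidylate synthase supply nucleotides. Cyclins A and B then switch on the kinase CDK1, which drives the cell into mitosis, and the anaphase-promoting complex ends mitosis by marking cyclins for destruction. Most cells of the adult kidney are not dividing, and dividing tubule cells are few unless the tissue is injured or growing. In RNA from whole kidney, fewer cells of a type and less RNA per cell cannot be told apart.

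Most of the members had low signals. The array medians used for comparison were 164.6 to 211.1 for 430A arrays and 50.8 to 68.3 for 430B arrays. Pcna, Rrm1, Mcm7 and Spc25 were above the median on all 24 arrays, and Mcm5 and Mcm6 on 23. Tyms, Cdca8, Mcm2, Hmgb2, Cdc20 and Mcm4 passed it on 13 to 17 arrays. Ccna2 and Rrm2 passed it on 7 arrays each, Cdk1 on 6, and Bub1b and Ube2c on 3 each. Of the 17 members under the filter, 15 were above the median on no array, Plk1 was above it on 1 and Racgap1 on 2. This low group held the proliferation marker Mki67, topoisomerase Top2a, the mitotic kinases Aurka, Aurkb, Plk1 and Bub1, cyclin Ccnb2 and all 5 members of spindle and cytokinesis. By role, 5 of the 6 MCM subunits, 4 of the 5 genes of clamp and nucleotide supply, 2 of the 3 partners of the anaphase-promoting complex and 3 of the 8 mitotic cyclins and kinases with a probe set were tested, shares that were not compared by a test. The bar was lower on 430B: Mcm5, Tyms, Bub1b and Cdca8 passed through 430B probe sets. The 430A probe sets of Mcm5, Tyms and Bub1b were above the median on 0 arrays, and Cdca8 had probe sets on 430B only.

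Some facts of the whole series bear on these genes. Kidney markers were present as labelled: 11 of the 12 listed had a probe set, and all 11 were kept. On 430A, female and male pools were separated by Xist (1457.9 to 2011.4 against 62.1 to 180.3) and by the Y-linked gene Eif2s3y (0.8 to 6.9 against 211 to 332.8). The 430B probe set of Eif2s3y overlapped (2.1 to 29.7 against 5 to 34.6), so it does not check sex on that chip. The probe sets of Phex never exceeded 32.8 and 49.8, below every array median, so they check nothing about genotype. Within a group, any pair of pools had r = 0.925 to 0.948 over features, a measure across genes that are not independent. The pool numbered 2 of Hyp males on low phosphorus held the highest value for 6 of the 34 members, and normal male control pools 1, 2 and 3 held the lowest for 3, 5 and 4 members. The lowest values also lay in low phosphorus pools, with 4 members each in pool 3 of normal males and pool 1 of normal females and 3 in pool 3 of normal females.

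**Figure D1:**
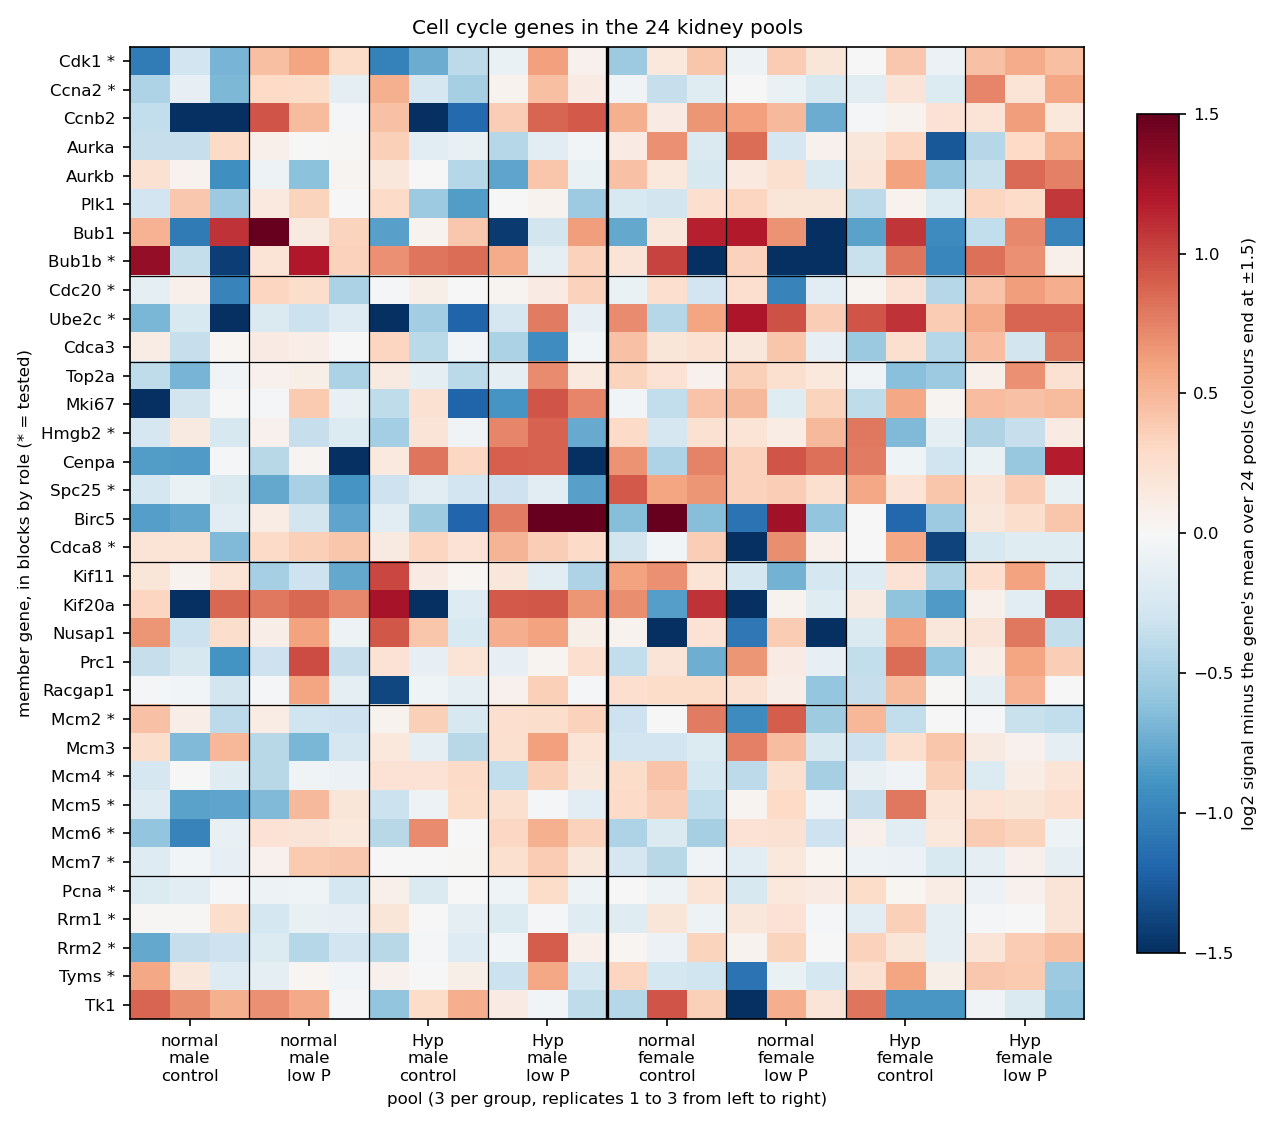
Log2 signal of the 34 members with a probe set (rows, in blocks by role) in each of the 24 pools (columns), minus the member's mean over the 24 pools; red is above that mean, blue below, and an asterisk marks the 17 tested members. Cdk1 and Ube2c are blue in the male control pools, Spc25 is red in the female pools except pool 3 of Hyp females on low phosphorus (479.4), and the rows of low-signal genes such as Bub1 and Kif20a scatter within groups.

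The start regions of these genes share letters that the choice of members did not use. RefSeq promoter windows (GRCm38.p6, 250 bases before to 50 after the start) were found for 31 of the 35 members and were searched on both strands for 3 motifs known from cell cycle promoters. The CCAAT box (CCAAT, or ATTGG when read on the other strand) occurred in 27 of the 31 (87.1%) and in 37.4% of all 32851 windows of the same length. The CHR element, a site of mitotic promoters (TTTGAA, read as TTCAAA on the other strand, or its variant TTCGAA), occurred in 20 of the 31 (64.5%) and in 19.2% of all windows. All 20 also held a CCAAT box, a combination found in 7.5% of all windows. An E2F core occurred in 8 of the 31 (25.8%) and in 8.1% of all windows. The letters searched for it were TTCGCGC as the first form, then the form TTGGCGC and then the form TTCCCGC, each with its reverse complement. A member was counted if any of its windows held the motif, and a gene with several starts, such as Mcm7, has several windows. The shares of all windows count each window singly, so they are not on the same measure as the member shares. No test of enrichment was made, and a match is a description of letters, not of a bound site.

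The windows of 4 members on which the diet and sex results turn are printed 5′ to 3′, with motif letters in capitals. Cdk1 and Ube2c are mitotic genes, Mcm7 is a replication gene, and Spc25 is the tested mitotic gene called lower on low phosphorus.
Cdk1, chr10:69352863-69353162, minus strand: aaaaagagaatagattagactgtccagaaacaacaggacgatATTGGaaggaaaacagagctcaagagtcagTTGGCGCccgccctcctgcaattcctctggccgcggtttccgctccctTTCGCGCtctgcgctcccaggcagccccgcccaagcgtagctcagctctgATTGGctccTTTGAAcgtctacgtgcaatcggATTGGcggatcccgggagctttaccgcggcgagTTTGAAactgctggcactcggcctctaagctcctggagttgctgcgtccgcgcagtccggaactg
Ube2c, chr2:164769679-164769978, plus strand: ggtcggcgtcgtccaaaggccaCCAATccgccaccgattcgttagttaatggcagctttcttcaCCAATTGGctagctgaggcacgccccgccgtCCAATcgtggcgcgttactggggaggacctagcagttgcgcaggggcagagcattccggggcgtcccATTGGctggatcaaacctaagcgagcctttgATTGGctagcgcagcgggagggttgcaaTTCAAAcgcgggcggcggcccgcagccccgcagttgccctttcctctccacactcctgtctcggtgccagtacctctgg
Mcm7, chr5:138171834-138172133, minus strand: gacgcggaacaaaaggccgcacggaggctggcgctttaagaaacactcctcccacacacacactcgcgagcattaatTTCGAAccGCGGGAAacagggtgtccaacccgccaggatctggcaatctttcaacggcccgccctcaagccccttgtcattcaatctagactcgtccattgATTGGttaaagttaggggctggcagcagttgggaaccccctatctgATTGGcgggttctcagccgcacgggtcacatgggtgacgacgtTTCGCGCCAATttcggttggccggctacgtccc
Spc25, chr2:69206164-69206463, minus strand: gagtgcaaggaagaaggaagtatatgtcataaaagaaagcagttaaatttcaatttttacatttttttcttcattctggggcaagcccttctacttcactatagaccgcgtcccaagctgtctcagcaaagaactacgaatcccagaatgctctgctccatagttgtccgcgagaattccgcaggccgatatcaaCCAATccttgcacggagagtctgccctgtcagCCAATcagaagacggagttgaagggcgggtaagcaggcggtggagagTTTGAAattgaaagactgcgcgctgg

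The Cdk1 window held 3 CCAAT boxes, 2 CHR elements and 2 E2F cores, with a CHR element from base -15 to base -10 relative to the start. The Ube2c window held 6 CCAAT boxes, 2 of which overlap, and 1 CHR element from base -29 to base -24. Mcm7 has another start, whose window held 1 CCAAT box, 1 E2F core and no CHR element. The window shown held 3 CCAAT boxes, 1 CHR element and 3 E2F cores, and its last capitals are 2 E2F cores that overlap each other and a CCAAT box. The Spc25 window held 2 CCAAT boxes and 1 CHR element, and no E2F core of these letters. Cdk1, which rose on low phosphorus, and Spc25, which fell, thus both held CCAAT boxes and a CHR element.

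The first comparison asked how the members differed between 12 low phosphorus and 12 control pools, over both genotypes and sexes. Cdk1 rose 1.56-fold on low phosphorus and Spc25 fell, and no other of the 17 tested members passed the threshold, an adjusted p under 0.05 from limma over all features. Among all 18381 features, 0.435% rose and 0.37% fell for diet (0.805% in all). The median log2 difference of the 17 members was 0.08, beside 0.0053 over all features, and 11 of the 17 were positive (64.7%, beside 51.4%). Because the filter left out 17 members, all 34 were also taken from a limma fit without the filter. There 23 of the 34 were positive (67.6%, beside 49.3% of all features), with a median of 0.11, and 13 had an unadjusted p under 0.05, beside 7.81% of 28289 features. Of these 13, 11 were higher on low phosphorus (Cdk1, Ccna2, Ccnb2, Plk1, Ube2c, Top2a, Mki67, Birc5, Mcm6, Mcm7 and Rrm2) and 2 lower (Spc25 and Kif11). In the same fit 4.13% of all features were higher and 3.68% lower at that unadjusted p. Only Cdk1 passed the threshold there, with an adjusted p of 0.0269. Genes of 1 pathway measured in the same pools are not independent, so the count is a description.

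**Figure D2:**
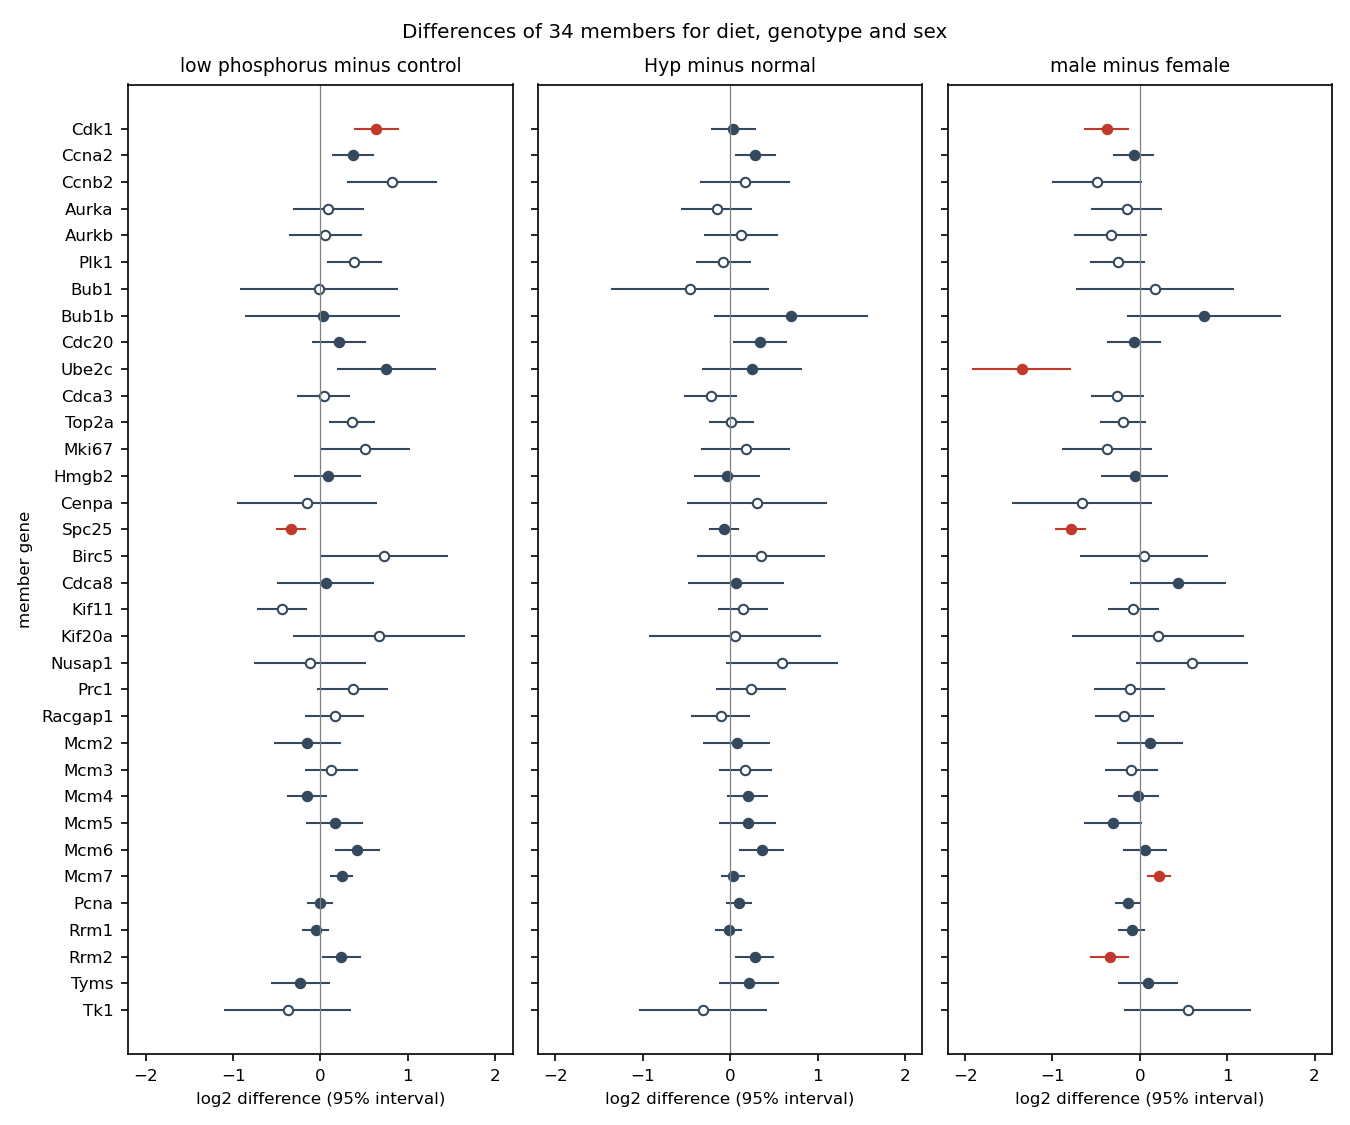
Log2 difference (point) with its 95% interval (line) for diet, genotype and sex in each of the 34 members; filled points are the 17 tested members, open points the 17 low-signal members from the fit without the filter, and red marks limma adjusted p under 0.05. Cdk1 and Spc25 are red for diet, none for genotype, and Cdk1, Ube2c, Spc25, Mcm7 and Rrm2 for sex.

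Among the mitotic cyclins and kinases, Cdk1, the kinase that drives entry into mitosis, gave the clearest diet difference. In normal males its signal was 67.8, 114.4 and 86.6 in the control pools and 190.7, 210.4 and 169.9 on low phosphorus. In Hyp males it was 69.4, 83.5 and 107 in the control pools and 131.1, 213.9 and 146.5 on low phosphorus. In both male genotypes every low phosphorus pool was above every control pool. In normal females the signal was 95.6, 155.6 and 186.5 on control and 132.7, 181.9 and 158.2 on low phosphorus, and these pools overlapped. In Hyp females it was 139.9, 185.4 and 132 on control and 189.2, 206.2 and 191.8 on low phosphorus, without overlap. Such a separation upward was seen in 5.43% of all features in normal males, 5.38% in Hyp males and 7.15% in Hyp females.

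Over all pools the mean Cdk1 signal was 177 ± 29.1 on low phosphorus and 119 ± 41.6 on control (SD, n = 12 each). The log2 difference was 0.64 ± 0.12 (SE, 95% interval 0.39 to 0.89, limma adjusted p = 0.00744). Normal mice had 0.63 ± 0.17 and Hyp mice 0.64 ± 0.17, with a genotype by diet term of 0.01 ± 0.24 (limma adjusted p = 0.998). Within the pools of number 1, 2 and 3 taken alone, 4 against 4, the Cdk1 difference was 0.83, 0.65 and 0.43. Of the 6 arrays on which Cdk1 exceeded the median, 5 were low phosphorus arrays, so the diet in which it was higher carried it through the filter. A filter on the mean over all 24 arrays left Cdk1 out. The call remained without any filter and without each of the 24 pools in turn (limma adjusted p = 0.00401 to 0.0197).

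Ccna2, the cyclin A2 partner of CDK1 and CDK2, read 117.6, 148.5 and 102 in normal male control pools and 199.9, 196.2 and 146.4 on low phosphorus. In normal females it read 156.9, 128 and 143.3 on control and 161.5, 151.7 and 137.5 on low phosphorus. In both, the highest control pool was above the lowest low phosphorus pool. Hyp males had 234.5, 135.9 and 114.7 on control and 167.8, 222.4 and 176.9 on low phosphorus, so that control pool 1 was the highest of the 6. In Hyp females it read 144.6, 184.9 and 140.3 on control and 269.7, 186.3 and 242.1 on low phosphorus, without overlap. The log2 difference for diet was 0.37 ± 0.11 and did not pass the threshold (limma adjusted p = 0.163). Without Hyp male control pool 1 it was 0.45 ± 0.09 (limma adjusted p = 0.0179). Ccna2 exceeded the array median on 6 low phosphorus arrays and 1 control array, so the diet in which it was higher carried it through the filter. Over all 24 pools without the filter the limma adjusted p was 0.309, and the filter on the mean left Ccna2 out.

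Ccnb2, cyclin B2, was below the array median on every array. In males its signal was 22.6 to 111.4 over the 6 control pools, with a pool at 22.7 next to the lowest, and 80.3 to 157.5 over the 6 low phosphorus pools. In females it was 80.3 to 130.3 on control and 49.1 to 127.1 on low phosphorus. Without the filter the log2 difference was 1.67 ± 0.34 in males and -0.04 ± 0.34 in females. The diet by sex term was 1.70 ± 0.48 (limma adjusted p = 0.62). Plk1, the polo kinase of mitotic entry, had a mean of 131 ± 36.1 on low phosphorus and 100.2 ± 26.5 on control (SD, n = 12 each) and a log2 difference of 0.39 ± 0.14 (limma adjusted p = 0.476 without the filter). Aurka, Aurkb and Bub1 had log2 differences of 0.09, 0.06 and -0.02 for diet, and the checkpoint kinase Bub1b had 0.03 ± 0.42, a wide error at a signal of 4.8 to 79.5.

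Ube2c, the ubiquitin-conjugating enzyme of the anaphase-promoting complex, had its larger diet difference in male pools. In normal males it read 62.2, 85.6 and 10.4 on control and 86, 80 and 87.6 on low phosphorus. In Hyp males it read 26.5, 69.8 and 43.4 on control and 84.1, 171.4 and 91.8 on low phosphorus. Hyp males separated by diet, and normal males overlapped through 1 control pool at 85.6. In normal females the values were 162.8, 74.3 and 150.1 on control and 232.5, 193.6 and 129 on low phosphorus. In Hyp females they were 192.5, 212.1 and 129.9 on control and 147.1, 183.6 and 183.1 on low phosphorus. Diets overlapped in both groups of females. The log2 difference for diet was 0.76 ± 0.27 and did not pass the threshold (limma adjusted p = 0.314). Cdc20, the activator of the same complex, had a mean of 209 ± 56.4 on low phosphorus and 177 ± 35.7 on control (SD, n = 12 each) and a difference of 0.21 ± 0.14. Cdca3, a target of the complex that lay under the filter, had 0.04 ± 0.14. The next probe set of Cdc20 had 0.40 ± 0.15, and the other probe sets of Cdca3 had 0.32 ± 0.14 and -0.42 ± 0.26.

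**Figure D3:**
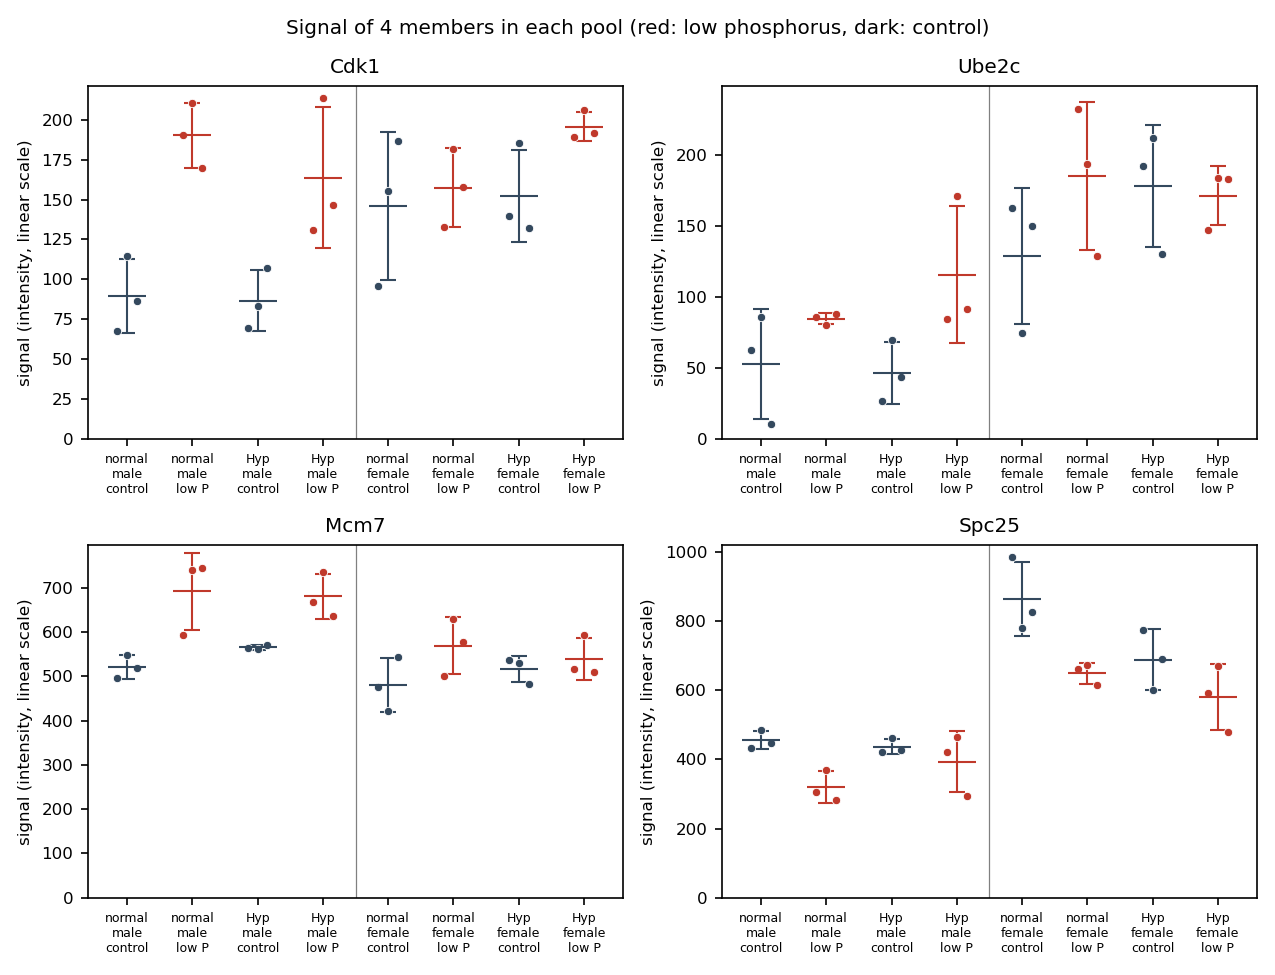
Signal (linear scale, each panel with its own axis from 0) of Cdk1, Ube2c, Mcm7 and Spc25 in the 24 pools; points are pools, wide ticks are group means and bars are SD (n = 3), with low phosphorus in red, control in dark, males left and females right of the grey line. Cdk1 is lowest in the male control groups (67.8 to 114.4), Ube2c is higher in most female pools, Mcm7 is higher on low phosphorus in males, and Spc25 is higher in females and lower on low phosphorus.

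Spc25, a subunit of the NDC80 complex that ties kinetochores to spindle fibres, went the other way. In normal males it read 434.1, 484.3 and 447.1 on control and 305.4, 370.4 and 282.5 on low phosphorus. In normal females it read 984.1, 780.2 and 825.1 on control and 660.1, 672.3 and 614.4 on low phosphorus. In both sexes of normal mice every low phosphorus pool was below every control pool. The share of all features that separated downward was not counted. Upward it was 5.43% in normal males and 5.38% in normal females. Among Hyp males the values were 420.4, 460.7 and 427.4 on control and 419.9, 465.2 and 295.1 on low phosphorus. In Hyp females it read 774.1, 599.4 and 691 on control and 592.5, 669 and 479.4 on low phosphorus. The Hyp groups overlapped by diet.

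Spc25 fell by 0.34 ± 0.08 on the log2 scale (limma adjusted p = 0.0472), from a mean of 611 ± 194 on control to 486 ± 152 on low phosphorus (SD, n = 12 each). This call lay at the threshold. It was lost when any 1 of 20 of the 24 pools was left out (limma adjusted p = 0.0249 to 0.102 over all 24 omissions), without the filter (0.114) and with arrays scaled to a common median (0.0598). It remained when pool 2 of Hyp female control, Hyp female low phosphorus, Hyp male low phosphorus or normal male low phosphorus was the one left out. The other Spc25 probe set, below the median on all arrays, had a log2 difference of 0.13 ± 0.12. Normal mice had -0.46 ± 0.11 and Hyp mice -0.21 ± 0.11, and the genotype by diet term, 0.25 ± 0.16, did not pass (limma adjusted p = 0.935).

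The other genes of chromosomes and the passenger complex had lower signals. Top2a, which untangles DNA before division, had a mean of 129 ± 28.9 on low phosphorus and 100.7 ± 23.6 on control, with a log2 difference of 0.36 ± 0.12 (limma adjusted p = 0.374 without the filter). The proliferation marker Mki67 had 91.0 ± 26.9 and 66.0 ± 24.9, with a difference of 0.51 ± 0.24 (limma adjusted p = 0.63 without the filter). Birc5, the survivin subunit of the passenger complex, had 26.3 ± 22.4 and 16.5 ± 20.1, where the SD is nearly as large as the mean. Hmgb2, a chromatin protein, ranged from 117.2 to 366.9 over the 24 pools and had a difference of 0.08 ± 0.18. Cdca8, the borealin subunit of the passenger complex, ranged from 14.9 to 98.9 with 0.06 ± 0.26, and the centromeric histone Cenpa from 6.7 to 109.8 with -0.16 ± 0.38. The 95% intervals of all 3 included 0. Among spindle genes, the motor Kif11 was lower on low phosphorus, with a mean of 77.5 ± 23.2 against 104.8 ± 30.3 (SD, n = 12 each). Its log2 difference was -0.44 ± 0.13 (limma adjusted p = 0.294 without the filter), and its other probe sets had -0.18 and -0.20. Kif20a, Nusap1, Prc1 and Racgap1 had 0.67 ± 0.46, -0.12 ± 0.30, 0.37 ± 0.19 and 0.16 ± 0.15.

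Within the MCM helicase, Mcm7 and Mcm6 had the larger diet differences. Mcm7 read 495.6, 548.9 and 519.7 in normal male control pools and 592.4, 739 and 745.1 on low phosphorus. In Hyp males it read 563.1, 561.6 and 570.6 on control and 668.5, 736.1 and 636.6 on low phosphorus. Both groups of males separated by diet. In normal females it read 475.3, 422.5 and 543.7 on control and 501.6, 628.5 and 578 on low phosphorus. In Hyp females it read 537, 530.9 and 482.4 on control and 516, 593.4 and 508.8 on low phosphorus. Both groups of females overlapped. The log2 difference was 0.24 ± 0.06 and just missed the threshold (limma adjusted p = 0.0577). It passed without normal female control pool 3 (0.0324), normal female low phosphorus pool 1 (0.0359) or normal male low phosphorus pool 1 (0.0249), with the filter on the mean (0.043) and with adjustment within each chip (0.0326). It was farther from the threshold with common median scaling (0.314), after quantile normalization (0.164) and without the filter (0.119). All 4 Mcm7 probe sets were higher on low phosphorus, with differences of 0.24, 0.25, 0.20 and 0.44.

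Mcm6 read 195.2, 147.3 and 272.9 in normal male control pools and 343.8, 337.5 and 329.6 on low phosphorus, without overlap. In normal females it read 213.4, 252.7 and 209.2 on control and 342.5, 345.1 and 238.5 on low phosphorus. Hyp males gave 221.1, 482.9 and 292.7 on control and 365.5, 424.8 and 374.8 on low phosphorus. Control pool 2 of Hyp males was thus the highest of all 24. In Hyp females the values were 310.3, 261.2 and 328.2 on control and 385.2, 370.6 and 278.7 on low phosphorus. The log2 difference for diet was 0.42 ± 0.12 (limma adjusted p = 0.127), and 0.50 ± 0.10 (adjusted p = 0.0164) without Hyp male control pool 2. Mcm2 had a mean of 209.9 ± 75.2 on low phosphorus and 228 ± 62.4 on control (SD, n = 12 each), with a log2 difference of -0.15 ± 0.18. Mcm5 had 114 ± 20.7 and 105.2 ± 35.4, with 0.16 ± 0.15. Mcm4, at 128.9 to 245.4 over the 24 pools, had -0.15 ± 0.11, and Mcm3, under the filter at 60.8 to 164.5, had 0.12 ± 0.14. The 6 subunits thus ran from -0.15 to 0.42, and none passed the threshold. The 2 negative values rest on 1 probe set each, since the probe set next in mean signal was positive for all 6 subunits, at 0.13 for Mcm2, 0.31 for Mcm3, 0.03 for Mcm4, 0.22 for Mcm5, 0.05 for Mcm6 and 0.25 for Mcm7.

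The replication clamp Pcna showed no detectable diet difference, with a mean of 1768 ± 207 on low phosphorus and 1778 ± 190.3 on control (SD, n = 12 each). Its log2 difference was -0.01 ± 0.07, with a 95% interval of -0.15 to 0.13. Rrm1, the large subunit of ribonucleotide reductase, had 324 ± 36.1 and 338 ± 43.4, a difference of -0.06 ± 0.07. It had -0.21 ± 0.10 in males and 0.10 ± 0.10 in females, and its diet by sex term, -0.30 ± 0.14, did not pass (limma adjusted p = 0.908). Rrm2, the small subunit made mainly in dividing cells, read 101.5, 136.2 and 139.5 in normal male control pools and 149.7, 128.4 and 141.6 on low phosphorus. Hyp males showed 129.4, 169.6 and 150.9 on control and 168.3, 324.9 and 183 on low phosphorus. Both groups of males overlapped, and low phosphorus pool 2 of Hyp males was the highest of all 24. In normal females it read 176.7, 162.7 and 218.2 on control and 179.2, 218.9 and 173.7 on low phosphorus. In Hyp females it read 219.4, 196.1 and 156.3 on control and 197.6, 225.3 and 236.1 on low phosphorus, again with overlap. The diet difference of Rrm2 was 0.24 ± 0.10 (limma adjusted p = 0.448), and its other probe sets had 0.59 ± 0.23 and 0.64 ± 0.14. Tyms, thymidylate synthase, had 63.3 ± 19.1 on low phosphorus and 72.3 ± 14.8 on control, with -0.23 ± 0.16. Tk1, thymidine kinase, ranged from 10.7 to 177.4 and had -0.38 ± 0.34.

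The diet comparison was then taken within each sex. In males 1 of the 17 tested members was called, Cdk1, beside 0.343% of all features, and in females none was called, beside 0.261%; 2 members (Ccna2 and Spc25) had an unadjusted limma p under 0.05 in females, beside 7.61%. The Cdk1 difference was 1.01 ± 0.17 in males (limma adjusted p = 0.00556) and 0.26 ± 0.17 in females (0.768). The difference between these, 0.75 ± 0.24, had an unadjusted limma p of 0.00513 and an adjusted p of 0.849. It is therefore not shown that the sexes differ. Of the 18381 features none passed the diet by sex test, and 985 had an unadjusted p under 0.05. Without the filter 1 of 28289 features passed it, and no member did. Over all 34 members without the filter, 12 in males had an unadjusted p under 0.05, 10 of them higher on low phosphorus, beside 7.25% of all features in either direction and 3.14% higher. In females there were 3, of which 2 were higher, beside 6.5% and 3.82%. These counts were not compared by a test. Ube2c had 1.25 ± 0.38 in males and 0.26 ± 0.38 in females, and Mcm7 had 0.33 ± 0.08 and 0.15 ± 0.08. Their diet by sex terms, 0.99 ± 0.54 and 0.18 ± 0.12, did not pass (limma adjusted p = 0.908 and 0.919).

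**Figure D4:**
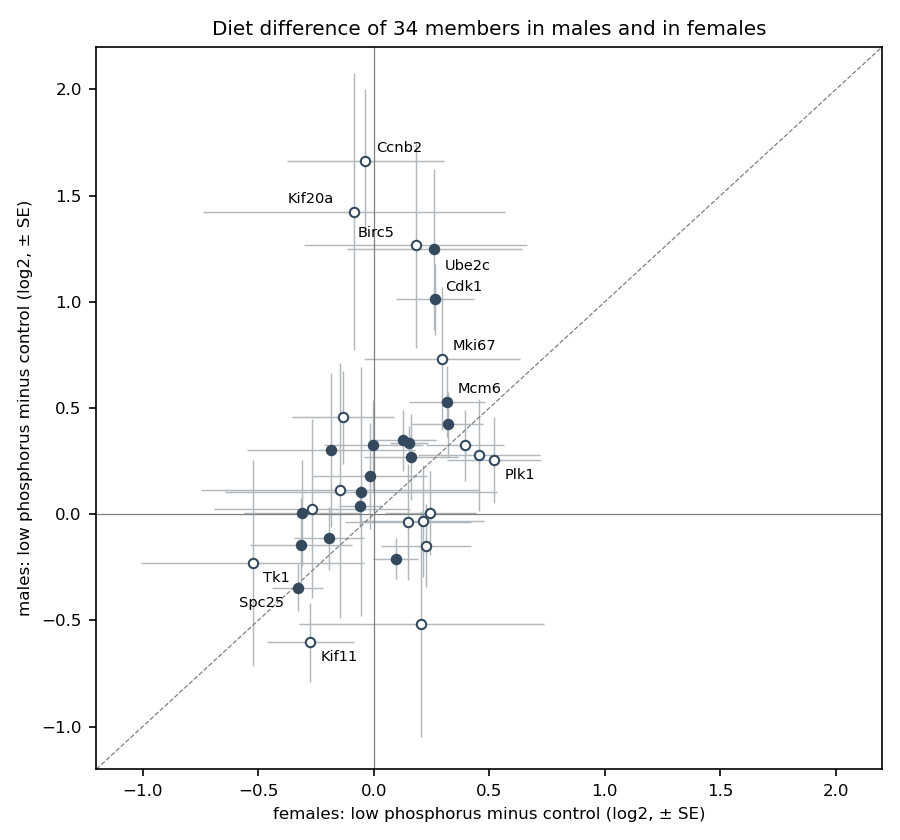
Log2 difference between low phosphorus and control (± SE) in females (horizontal) and in males (vertical) for the 34 members; filled points are tested members, open points low-signal members, and the dashed line marks equal differences. Ccnb2, Ube2c and Cdk1 lie far above the dashed line, at 1.67, 1.25 and 1.01 in males against -0.04, 0.26 and 0.26 in females.

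The second comparison set 12 Hyp against 12 normal pools. None of the 17 tested members passed the threshold in limma, beside 2.13% of all features, and 4 had an unadjusted p under 0.05, all higher in Hyp, beside 10.9% of all features in either direction. The largest of these was Mcm6, with a mean of 341 ± 73.7 in Hyp and 269 ± 69.6 in normal pools and a log2 difference of 0.36 ± 0.12 (limma adjusted p = 0.147). Without Hyp male control pool 1 this was 0.42 ± 0.11 (adjusted p = 0.0478), the 1 omission that gave a called member. Cdc20 had 0.34 ± 0.14, Ccna2 0.29 ± 0.11 and Rrm2 0.28 ± 0.10 (limma adjusted p = 0.359, 0.262 and 0.229). The probe sets next in mean signal had -0.06 ± 0.15 for Mcm6, 0.18 ± 0.15 for Cdc20, 0.01 ± 0.14 for Ccna2 and 0.07 ± 0.23 for Rrm2. Ccna2 and Rrm2 each exceeded the array median on 5 Hyp and 2 normal arrays. The genotype in which they were higher thus carried them through the filter. Cdk1 and Spc25, which changed with diet, had 0.04 ± 0.12 and -0.07 ± 0.08 for genotype. The median over the 17 members was 0.20 and 14 were positive, beside a median of -0.0028 and 49.3% positive over all features. Over all 34 members without the filter, 25 were positive (73.5%, beside 49% of all features) and 4 had an unadjusted p under 0.05, beside 8.75% of all features. No member passed any of the 4 interaction terms, and over all features 0.0163% passed for genotype by diet and 0.0816% for genotype by sex.

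The third comparison set 12 male against 12 female pools. Of the 17 tested members, 4 were lower in males (Spc25, Ube2c, Cdk1 and Rrm2) and 1 was higher (Mcm7), beside 10% and 6.16% of all features (16.2% in either direction). Spc25 had a mean of 401 ± 70.5 in males and 695 ± 131 in females (SD, n = 12 each), and its log2 difference was -0.79 ± 0.08 (limma adjusted p = 2.03e-07). Among control pools of normal mice the 3 males (434.1 to 484.3) lay well below the 3 females (780.2 to 984.1). The share of all features separated by sex in this way was not counted. The Spc25 difference was -0.97 ± 0.11 in normal and -0.61 ± 0.11 in Hyp mice, both past the threshold, as were 9.46% and 7.19% of all features, and the genotype by sex term was 0.36 ± 0.16 (limma adjusted p = 0.749). The other Spc25 probe set had -0.05 ± 0.12. Ube2c had 74.9 ± 40.2 in males and 166 ± 43.0 in females, a log2 difference of -1.35 ± 0.27 (limma adjusted p = 0.00112), and it exceeded the array median on 3 arrays, all female. The sex in which it was higher thus carried it through the filter. Without the filter the limma adjusted p was 0.00407, and the filter on the mean left Ube2c out.

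Mcm7 was higher in males, at 615 ± 88.4 against 527 ± 55.9, with a log2 difference of 0.22 ± 0.06 (limma adjusted p = 0.0132). Its next probe set had 0.10 ± 0.08 and did not pass (limma adjusted p = 0.5). The remaining probe sets had -0.03 ± 0.07 and 0.27 ± 0.11, so the Mcm7 probe sets did not all go the same way for sex. Cdk1 (-0.38 ± 0.12, limma adjusted p = 0.0333) and Rrm2 (-0.34 ± 0.10, 0.0235) were called lower in males on the deposited scaling only. With arrays scaled to a common median these adjusted p-values were 0.147 and 0.137, and after quantile normalization 0.197 and 0.157. The Cdk1 call was also lost without the filter (0.0684) and when any 1 of 11 pools was left out. Rrm2 exceeded the array median on 5 female and 2 male arrays, so the sex in which it was higher carried it through the filter. Its call lay at the threshold without the filter (limma adjusted p = 0.0499) and was lost with its second probe set (0.359). The scaling matters most for sex: the median difference over all features was -0.05 as deposited and 0.02 with a common median, and the share of calls higher in males went from 38.1% to 63.3%, with 44.6% after quantile normalization. Spc25, Ube2c and Mcm7 kept their direction and their call under both. The median over the 17 members was -0.06 as deposited, and it turned to 0.033 with a common median and 0.036 after quantile normalization.

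Markers of other cells were called for sex, and none of them for diet. Of the kept leukocyte markers 2 of 5 were lower in males (2 of 5 for fibroblasts, 3 of 5 for endothelium), beside 10% of all features. Of the 11 kept kidney markers 5 were also lower in males and 1 was higher, so such calls were not particular to these other cells. Marker calls were taken on the deposited scaling only. Of 4 kept markers of tubule injury, Vim and Clu were lower in males by 0.32 and 0.38 on the log2 scale, and Havcr1 was higher by 0.79 (limma adjusted p = 0.0211, 3.88e-05 and 0.000184). Clu was also higher in Hyp by 0.30 (limma adjusted p = 0.00313), the 1 call for genotype among the lists of other cells and tubule injury. The summed leukocyte signal was 3044.3 to 3727.4 in males and 3717.6 to 4577.5 in females. The summed endothelial signal was 2325.9 to 3175.9 in males and 3166.6 to 3702.2 in females, and the summed fibroblast signal 2892.3 to 3568 and 3531 to 4470.5. For diet no marker of leukocytes, endothelium, fibroblasts, red cells, adrenal or tubule injury was called, and the ranges overlapped, with leukocytes at 3044.3 to 4577.5 on control and 3348.2 to 4218.5 on low phosphorus. The leukocyte markers Itgam, Cd3e and Cd79a were below the median on every array. Among kidney markers, Slc5a2, the glucose carrier of the proximal tubule, rose on low phosphorus by 0.30 ± 0.06 (limma adjusted p = 0.0174). The part of these cells in the member results was not tested.

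The surrounding pathway was described from 85 further cell cycle genes, of which 82 had a probe set and 41 were tested. None of the 41 was called for diet in limma, and 6 had an unadjusted p under 0.05 (14.6%, beside 9.59% of all features), with a median of 0.04. Cdkn1a, the p21 inhibitor of CDKs, had 0.26 ± 0.15 (limma adjusted p = 0.652). Ccnd1, cyclin D1 of the entry into the cycle, had 0.20 ± 0.09 (0.502). Foxm1, an activator of mitotic genes, had -0.04 ± 0.15 (0.979). Myc was below the median on every array, at 46.6 to 133.7.

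For genotype 3 of the 41 were called, beside 2.13% of all features. Stmn1, a microtubule destabiliser, rose in Hyp by 0.27 ± 0.07 (limma adjusted p = 0.0319). Cks2, a small subunit of CDK complexes, fell by 0.31 ± 0.07 (0.012), and Ccnd1 fell by 0.36 ± 0.09 (0.0419). The Ccnd1 and Stmn1 calls were lost when any 1 of 17 and of 14 pools was left out, and without the filter (0.098 and 0.0692), and the Cks2 call with arrays scaled to a common median (0.0936). For sex 5 of the 41 were called, all lower in males, beside 10% of all features lower and 16.2% in either direction: Foxm1 (-0.54 ± 0.15), Cdc25a (-0.32 ± 0.09), Cdkn2c (-0.30 ± 0.08), Ccnd2 (-0.23 ± 0.07) and Pttg1 (-0.22 ± 0.05). With arrays scaled to a common median only Cdkn2c of these 5 kept its call.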

How the data were processed

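Kidney RNA was extracted with TRIzol, labelled with biotin and read with GCOS 1.2, per the labels and the submitters' processing notes; no setting of it is given in the sources used here. For each array, the authors deposited 1 linear intensity for every probe set. It was already scaled: 100 probe sets shared by the chips had a trimmed mean (2% off each end) of 1200 on all 48 arrays. Detection calls were not used, so a low gene is known only as low.

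Leaving out controls, 35041 of 45137 probe sets carried 1 symbol, 936 several and 9160 none; symbols were updated to GRCm38.p6 names by identifier for 34837. Signals were floored at 1 and taken to log2. The filter kept features above the array median on at least 3 of 24 arrays. The chips were fitted separately with 8 group means in limma 3.58.1 (R 4.3.3), and p-values were adjusted by Benjamini-Hochberg over both chips, with a threshold of 0.05. The script was tested on simulated data. The members, gene lists and tests were chosen with earlier results of these data known.

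Values after ± are SE of log2 differences or SD where stated. Pools are the replicates, and their spread is smaller than that of single mice. Precision is limited by the number of pools, 3 per group. Every member was accounted for. Values of every pool were given for members past the threshold in a main effect, for the 6 with the smallest p for diet and for the 3 with the smallest for genotype and for sex. From the wider list, genes past the threshold and Cdkn1a, Ccnd1, Myc and Foxm1 were named. Low-signal members named with values, and Slc5a2, were picked after their values were seen. Alternatives changed the filter, the floor, the scaling, the probe set, the prior, the adjustment and the replicate block, and left out each pool.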

Additional observations from a re-analysis of the deposited data

How the results depend on the processing

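None of the differences with the smallest p or past the threshold changed sign under the alternatives in which their gene was tested. Other tested members did change sign for diet with the second probe set, Mcm2 from -0.15 to 0.13 and Rrm1 from -0.06 to 0.18. The second probe set of Spc25, at 0.13 for diet, did not pass the filter and was not tested there. The members' median for sex changed sign, from -0.063 to 0.033 with common median scaling and 0.036 with quantile normalization. Under these scalings the calls for diet over all features went from 80 higher and 68 lower to 50 and 60, and to 72 and 75. The members called for diet numbered 2, and 1 (Cdk1) without the filter, with arrays scaled to a common median and with the second probe set of each member, where the median over members was 0.33. With the filter on the mean the 2 were Mcm7 (limma adjusted p = 0.043) and Spc25, and with adjustment within each chip 3 were called, Mcm7 (0.0326) being added. For sex 5 members were called, 2 with the filter on the mean (median for genotype 0.073 there), and 3 with common median scaling, with quantile normalization and with the second probe set (medians 0.073 for genotype and -0.31 for sex). The wider list gave 1 call for genotype without the filter and 2 for sex with common median scaling. Within normal mice 1 member was called for diet with the prior trend and with adjustment within each chip. Within males none was called with the filter on the mean, which left Cdk1 out, and within normal males 1 was called with adjustment within each chip. Within normal and within Hyp mice 1 member each was called for sex without the filter, with the filter on the mean and after quantile normalization.

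The labels number the pools 1 to 3, but the numbers share no stated animal or day. The 84 pairs of the same number in different groups correlated at r = -0.053 to 0.093 (mean 0.030), and 0 exceeded 0.1. Pairs of different number had a mean of -0.015, and 22 of 24 pools correlated best with their own number on average. No pairing was assumed because the labels state none, and what the numbers share was not tested. With the replicate block 3 members were called for diet (Cdk1, Mcm7 and Spc25), 2 in normal mice, 1 in Hyp mice and 1 in normal males.

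Leaving out each pool in turn gave 1 to 2 members called for diet, 0 to 1 for genotype, 0 to 1 for diet in normal mice, 1 to 2 in males and 0 to 1 in normal males, 1 to 3 for sex in normal and 1 to 3 in Hyp mice. The wider list gave 0 to 1 for diet, 1 to 3 for genotype and 4 to 8 for sex. The median for diet was 0.043 to 0.20. The 13 of 34 members at an unadjusted p under 0.05 for diet were 10 to 13 over these omissions and 10 with common median scaling, an alternative chosen after seeing the data. The causes of these shifts were not tested. Signals below the array median limit the mitotic genes: 15 of the 17 members under the filter exceeded it on no array.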
